A study of Mus musculus with 21 samples.

Results

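The miRNAs described here are the 10 mature arms, cut from 6 hairpins, that lie on the Meg3 side of the imprinted Dlk1-Dio3 region of mouse chromosome 12, from inside Meg3 up to Rtl1. They are mmu-miR-770-5p, mmu-miR-770-3p, mmu-miR-673-5p, mmu-miR-673-3p, mmu-miR-493-5p, mmu-miR-337-5p, mmu-miR-337-3p, mmu-miR-540-5p, mmu-miR-540-3p and mmu-miR-665-3p (mmu, mouse), out of the 1647 miRNAs of the count table. They were chosen by name and position, with their measured levels over the stages already known, so that their stage differences describe them and support nothing about the group. Small RNAs were sequenced from 2 stations of the developing auditory system of untreated wild-type mice, to follow miRNAs over embryonic day 16 (E16), the day of birth (P0) and postnatal day 16 (P16). The cochlear samples, labelled inner ear sensory epithelium (C57BL/6JOlaHsd mice), gave 2 E16, 4 P0 and 4 P16 libraries. The samples of the superior olivary complex (SOC), an auditory nucleus group of the brainstem labelled neuronal (C57Bl6/J mice), gave 4 E16, 4 P0 and 3 P16 libraries. Each SOC sample pooled the tissue of several animals. Cochlear tissue came from inner ears of several mice of both sexes. RNA isolation and library kits differed between the organs, so that organ and kit cannot be told apart, and the strains differed as well.

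In the Dlk1-Dio3 region the paternal chromosome expresses the protein-coding genes Dlk1, Rtl1 and Dio3, and the maternal chromosome expresses long non-coding RNAs, among them Meg3, together with a large number of miRNAs. Most of these miRNAs sit in the Rtl1-antisense transcript and in the cluster from miR-379 to miR-410 further downstream, and they are known for high levels in brain. A miRNA hairpin is cut into a 5p and a 3p arm, and the arm loaded into Argonaute recognizes target mRNAs mainly through its seed, bases 2 to 8.

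The mature sequences are shown because levels and calls are given arm by arm, and because the seed decides which targets an arm can pair with. All 10 were matched by name to RefSeq entries on GRCm38.p6, the build that mm10 names, and are written 5′ to 3′ with the seed in capitals.
miR-770-5p: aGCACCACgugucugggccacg
miR-770-3p: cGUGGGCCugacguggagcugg
miR-673-5p: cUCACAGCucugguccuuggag
miR-673-3p: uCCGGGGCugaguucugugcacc
miR-493-5p: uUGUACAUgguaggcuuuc
miR-337-5p: cGGCGUCAugcaggaguugauu
miR-337-3p: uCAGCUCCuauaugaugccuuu
miR-540-5p: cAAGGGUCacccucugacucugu
miR-540-3p: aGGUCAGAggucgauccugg
miR-665-3p: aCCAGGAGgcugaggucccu

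No seed occurred in more than 1 of the 10 arms, so these hairpins do not form a seed family. Among all mature mouse miRNAs of the RefSeq table, the seed of miR-673-5p was also held by miR-6985-3p and that of miR-540-3p by miR-6915-5p, and the other 8 seeds were held by no other mature miRNA. The nearest other mature sequence was at least 6 edits away from each arm.

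All 6 hairpins were on the plus strand of chromosome 12, the strand of Meg3 (chr12:109541001-109571726 in GENCODE on GRCm38). Mir770 (chr12:109563692-109563785) lay inside Meg3, within the span of 4 annotated Meg3 transcripts and inside an exon of 1 of them. Mir673 (chr12:109571990-109572080) began 264 bases after the annotated end of Meg3. Mir493 (chr12:109580233-109580315) lay 8152 bases further on. Mir337 (chr12:109585789-109585885), Mir540 (chr12:109586080-109586146) and Mir665 (chr12:109586314-109586407) followed within a short stretch, separated from one another by 194 and 167 bases. Mir665 ended 2786 bases before Rtl1 (chr12:109589193-109600330), which is encoded on the minus strand. The map of the locus places the isolated hairpins Mir770, Mir673 and Mir493 against the tight group of Mir337, Mir540 and Mir665.

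**Figure D1:**
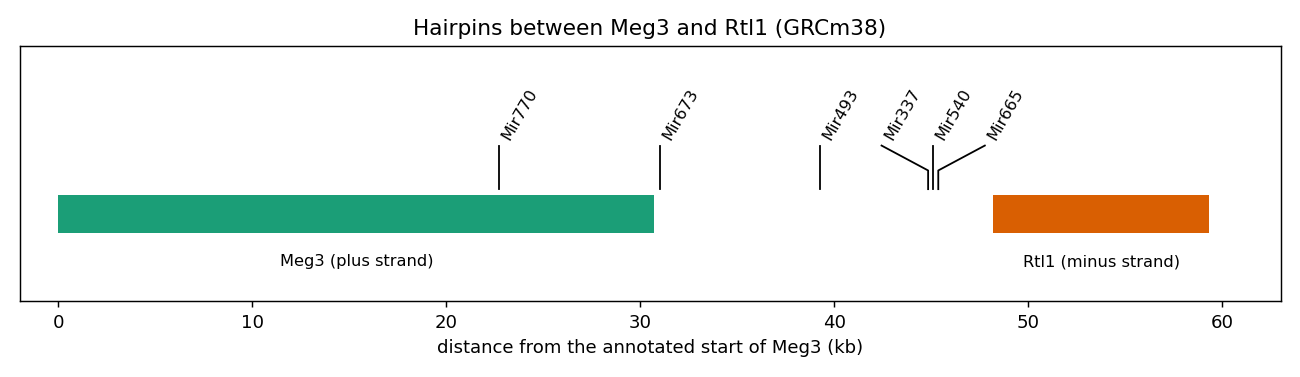
Positions of the 6 hairpins (vertical lines) and of Meg3 and Rtl1 (bars, as annotated on GRCm38), in kb from the annotated start of Meg3. Mir770 lies inside Meg3, and Mir337, Mir540 and Mir665 lie 194 and 167 bases apart just before Rtl1.

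The hairpins of miR-770 and miR-673, whose arm shares are compared below, are also shown whole, with both mature arms in capitals, the 5p arm first.
Mir770: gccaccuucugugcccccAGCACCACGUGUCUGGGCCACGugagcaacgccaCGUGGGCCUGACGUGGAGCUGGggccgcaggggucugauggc
Mir673: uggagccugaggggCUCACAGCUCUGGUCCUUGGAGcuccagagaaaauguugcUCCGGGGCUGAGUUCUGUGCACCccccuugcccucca

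The cochlear libraries held 124400 to 447419 counts and the SOC libraries 8309669 to 18053698, so that 1 count was worth 5.08 CPM (counts scaled to a common library size) at the median cochlear depth and 0.0854 CPM at the median SOC depth. Levels are given as CPM after TMM scaling, edgeR's correction for library composition, within the organ. A level of 3 counts, taken as the floor, corresponded after TMM scaling to a mean of 16.1 CPM over the cochlear libraries. By stage this mean was 6.69 CPM at E16, 16.6 CPM at P0 and 20.2 CPM at P16. Floors and intervals are computed from counts and cover counting error only, not the spread between libraries. The study's methods name no molecular identifiers, so that copies of 1 molecule may have been counted more than once. The SOC libraries fell into 3 sets that no label names: 4 libraries in which miR-99b-5p took over 10% of the counts (set A, E16 and P0 replicates 2 and 3), 3 in which miR-191-5p took under 1% (set C, P0 replicate 4 and P16 replicates 2 and 3) and 4 others (set B). Set C holds no E16 library and set A no P16 library. Values with the set as a covariate, or within sets, are therefore given beside the SOC changes of the arms. The neuronal marker miRNAs summed to medians of 6.79, 8.70 and 2.69% of CPM in the SOC at E16, P0 and P16. In the cochlea their medians were 0.0809 to 0.307%. The 3 miRNAs of the hair cell list (the miR-183 cluster, also known from sensory neurons) made up a median of 3.20 to 5.41% of cochlear CPM, but also 13.3% in the SOC at E16, falling to 1.85% at P0 and 0.146% at P16. Oligodendrocyte marker miRNAs rose from a range of 389 to 493 CPM in the SOC at E16 to 3600 to 9117 CPM at P16. In bulk tissue, fewer cells of a type and less RNA per cell cannot be told apart.

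A miRNA was called changed between stages when the false discovery rate (FDR, the Benjamini-Hochberg adjusted p of edgeR's quasi-likelihood test over all miRNAs of the organ) was under 0.05, the fold change was over 1.5 and the replicates of the stages did not overlap. In the SOC, 9 of the 10 Meg3-side miRNAs passed the filter, which asks for over 1 CPM in 2 or more libraries of 1 stage. The exception was miR-493-5p, with 0 to 4 counts in each library. In the cochlea all 10 passed it, although 5 of them never exceeded 4 counts in a library: at that depth a single count is enough for 1 CPM.

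In the SOC, miR-770-3p was higher at P0 and P16 than at E16, miR-770-5p was highest at P16, miR-673-3p was lower at P16 than at E16, and the arms of miR-337 and miR-540 and miR-665-3p gave no call. Of the arms of miR-770, miR-770-3p was the more abundant one at every stage. Its level was 81.6, 104, 106 and 206 CPM in the 4 E16 libraries, 232, 379.1, 520 and 1270 CPM at P0, and 402, 1667 and 1571 CPM at P16. All E16 values lay below all later ones, while P0 and P16 overlapped. miR-770-3p rose by a log2 fold change of 2.27 (SE 0.61, FDR 0.0458) from E16 to P0 and of 3.29 (SE 0.66, FDR 0.00243) from E16 to P16, both called. From P0 to P16 the value was 1.02 (SE 0.63, FDR 0.263), which was not called.

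Adding the library set as a covariate gave log2 fold changes of miR-770-3p of 1.54 at P0 (SE 0.33, FDR 0.00317) and 1.80 at P16 against E16 (SE 0.39, FDR 0.00164), each smaller than without it and both called. The highest values, 1270, 1667 and 1571 CPM, belonged to the 3 set C libraries. Within set A, mean miR-770-3p was 2.10 higher on the log2 scale at P0 than at E16. Within set B it was 0.69 higher at P0 and 1.48 higher at P16, and within set C it was 0.35 higher at P16 than at P0. The P0 call was the more fragile: it was lost on leaving out any of 8 of the 11 libraries (E16 replicates 1, 2 and 3, P0 replicates 2, 3 and 4, and P16 replicates 2 and 3), with log2 fold changes of 1.65 to 2.55 over all omissions and FDR values up to 0.143. The P16 call held in all 11 omissions, with log2 fold changes of 3.09 to 3.70, but both calls were lost without the 4 set A libraries, at 2.38 (FDR 0.447) and 3.08 (FDR 0.0777).

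miR-770-5p was the rarer arm, at 6.04, 3.01, 3.30 and 10.6 CPM at E16, 20.03, 10.3, 14.8 and 57.4 CPM at P0, and 67.0, 172 and 175 CPM at P16. The 3 P16 values lay above all others, and P0 replicate 2 lay just below E16 replicate 4, so that those stages overlapped. From E16 to P0 the log2 fold change was 2.16 (SE 0.63, FDR 0.0597), not called. It was 2.43 (SE 0.66) from P0 to P16 and 4.59 (SE 0.71) from E16 to P16. Both of these are given as a description without a test, since the arm was singled out in these data for its rise to P16. With the set covariate the 3 log2 fold changes of miR-770-5p were 1.67 (P0 against E16), 1.53 (P16 against P0) and 3.20 (P16 against E16). Within sets, miR-770-5p was higher at the later stage in each of the 5 comparisons possible, by 1.26 to 3.00 on the log2 scale. Leaving out single libraries gave 2.17 to 3.22 from P0 to P16 and 4.37 to 5.08 from E16 to P16.

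Of the arms of miR-673, only miR-673-3p was called in the SOC. It stood at 542, 578, 614 and 538 CPM at E16, 319, 450, 466 and 98.8 CPM at P0, and 298, 65.1 and 47.5 CPM at P16. All E16 libraries were above all P0 and P16 libraries. From E16 to P16 miR-673-3p fell by 2.05 on the log2 scale (SE 0.69, FDR 0.0294) and was called, while the change to P0 was -0.77 (SE 0.60, FDR 0.5001) and that from P0 to P16 -1.28 (SE 0.66, FDR 0.182). The latter was called without P0 replicate 4 (-1.65, FDR 0.0355) or P16 replicate 1 (-2.57, FDR 0.0103). The 3 lowest values, 98.8, 65.1 and 47.5 CPM, were those of set C. With the set as a covariate the fall of miR-673-3p from E16 to P16 was about 1 log2 unit (-0.99, SE 0.25, FDR 0.00480), still called. Within set B it was -0.86. The call was lost without E16 replicate 2 (FDR 0.0546), E16 replicate 3 (FDR 0.0571), P16 replicate 2 (FDR 0.104) or P16 replicate 3 (FDR 0.0965), where the log2 fold change was -1.66 to -2.05. It was also lost without set A (-1.98, FDR 0.153) and without set C (-0.96, FDR 0.0903).

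miR-673-5p was at 200, 177, 146 and 337.015 CPM at E16, 71.7, 72.4, 88.8 and 442 CPM at P0, and 75.0, 187 and 185 CPM at P16. The stages overlapped, because P0 replicate 4 was higher than any other library and the other 3 P0 libraries were lower than all of E16. Over all libraries the log2 fold changes were -0.35 (SE 0.62, FDR 0.794) at P0 and -0.53 (SE 0.68, FDR 0.535) at P16 against E16, and neither was called. With the set as a covariate they were -1.20 (SE 0.27, FDR 0.00464) and -2.02 (SE 0.34, FDR 0.000191). These values passed the FDR threshold but not the condition on overlap, which uses the values of all libraries. Within set A miR-673-5p was lower at P0 than at E16 (-1.002), within set B the differences were -1.91 at P0 and -1.84 at P16, and within set C the difference of P16 from P0 was -1.25. Between P0 and P16 within set B, with 1 library each, the difference was 0.06. Without set C, miR-673-5p was called lower at P0 than at E16 (-1.48, FDR 0.0195). Within sets miR-673-3p was lower at the later stage in each of the 5 comparisons, by -0.10 to -0.86, and miR-673-5p in 4 of these 5, so that within sets both arms were lower in the same 4.

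The plot of SOC levels shows each library with its set. It shows miR-770-5p and miR-770-3p climbing over the stages, miR-673-3p descending, and set C lying at the edge of its stage for several arms.

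**Figure D2:**
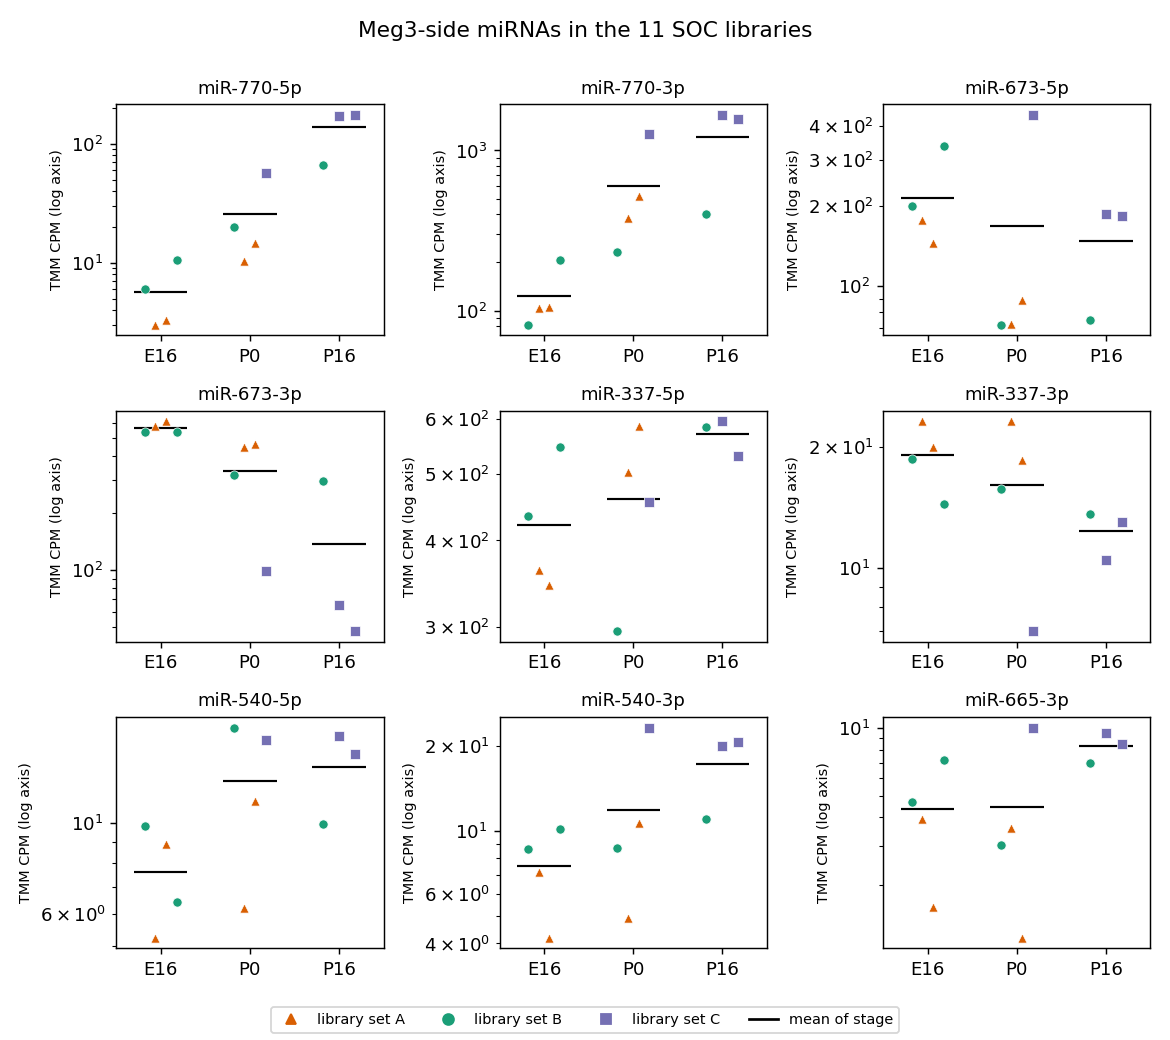
TMM-scaled CPM (log axis) of 9 Meg3-side miRNAs in each SOC library (4 E16, 4 P0 and 3 P16 libraries), with a bar at the mean of the stage and the library set given by marker. miR-770-5p runs from 3.01 to 10.6 CPM at E16 and from 67.0 to 175 CPM at P16, and the set C libraries hold the highest miR-770-3p and the lowest miR-673-3p values.

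miR-337-5p was the most evenly expressed of the abundant arms in the SOC. Its level was 345 to 546 CPM at E16 (mean 422 ± 91.4, SD, n = 4), 296 to 586 CPM at P0 (460 ± 122, n = 4) and 530 to 595 CPM at P16 (570 ± 34.9, n = 3). The 3 stages overlapped, and the log2 fold changes were 0.13 (SE 0.33, FDR 0.879) at P0 and 0.43 (SE 0.35, FDR 0.326) at P16 against E16. With the set covariate they were 0.13 (SE 0.25, FDR 0.740) and 0.46 (SE 0.31, FDR 0.221). Its partner miR-337-3p was far rarer, at 14.4 to 23.1 CPM at E16, 6.98 to 23.1 CPM at P0 and 10.5 to 13.6 CPM at P16. All P16 values of miR-337-3p lay below all E16 values, but the log2 fold change of -0.62 (SE 0.43, FDR 0.249) was not called and became 0.10 (SE 0.35) with the set covariate.

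The arms of miR-540 and miR-665-3p were rare in the SOC and gave no call. miR-540-5p was at 5.25 to 9.85 CPM at E16, 6.20 to 17.2 CPM at P0 and 9.97 to 16.4 CPM at P16, with a log2 fold change of 0.85 (SE 0.43, FDR 0.128) from E16 to P16. miR-540-3p was at 4.20 to 10.2 CPM at E16, 4.91 to 23.3 CPM at P0 and 11.005 to 20.8 CPM at P16, with a log2 fold change of 1.19 (SE 0.53, FDR 0.0850) from E16 to P16. For both arms the P16 libraries lay above the E16 libraries without overlap. With the set covariate the difference of miR-540-3p was 0.22 (SE 0.38) and that of miR-540-5p 0.32 (SE 0.42). miR-665-3p ranged from 1.18 to 10.001 CPM over the 11 libraries, and its log2 fold change from E16 to P16 was 0.92 (SE 0.65, FDR 0.258). With the set covariate that change was -0.037. The absence of calls depended on the setting for 2 of these arms. miR-540-3p was called from E16 to P16 with at least 10 counts in every library (FDR 0.0471), without P0 replicate 4 (FDR 0.0293) and without P16 replicate 1 (FDR 0.0495). miR-665-3p was called from P0 to P16 without P0 replicate 4 (log2 fold change 1.67, FDR 0.0365).

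**Figure D3:**
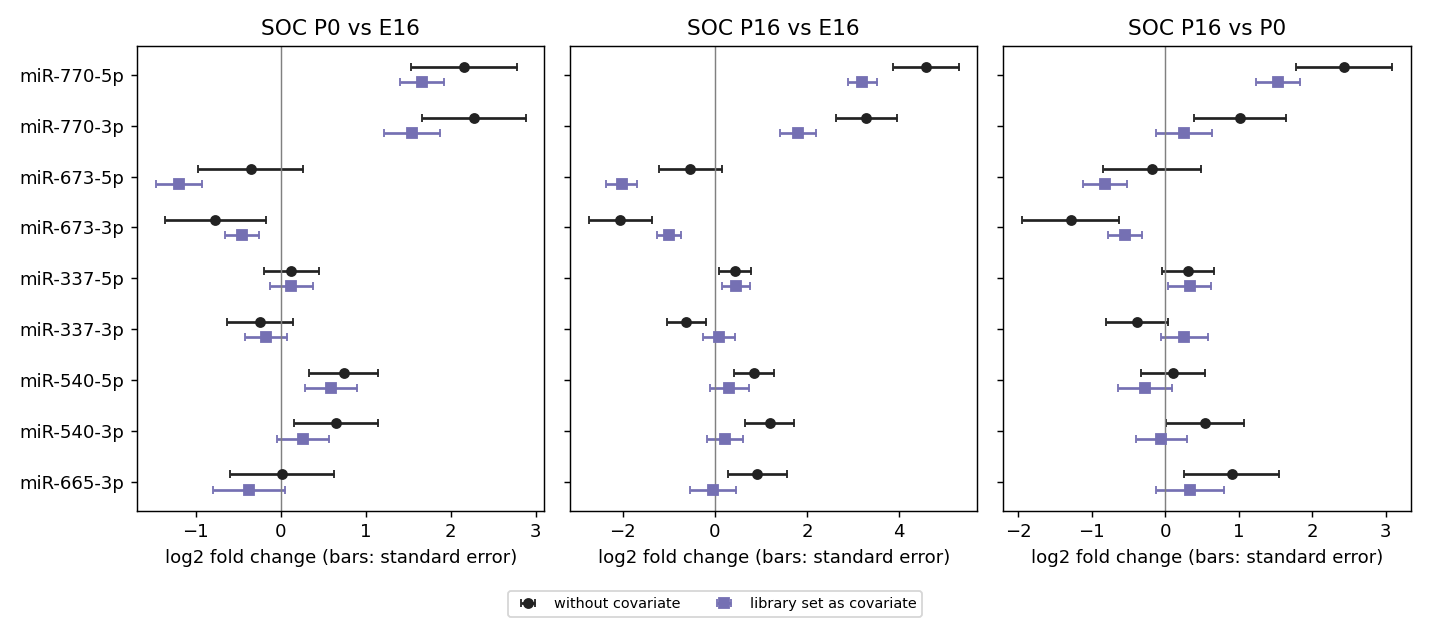
Log2 fold changes with their standard errors for 9 Meg3-side miRNAs in the SOC, fitted without (black circles) and with (violet squares) the library set as a covariate, for P0 against E16, P16 against E16 and P16 against P0. The covariate brings the E16 to P16 change of miR-770-3p from 3.29 to 1.80 and moves that of miR-673-5p from -0.53 to -2.02.

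In the plot of fold changes the 2 fits part most for the arms of miR-770 and miR-673 and for miR-540-3p, and they lie close together for miR-337-5p. Counted over the list, 1 of 9 Meg3-side miRNAs was called at P0 against E16 in the SOC (miR-770-3p, higher), where 6.63% of all 694 miRNAs tested were called (2.45% higher, 4.18% lower). At P16 against E16, 2 of the 8 miRNAs other than miR-770-5p were called, miR-770-3p higher and miR-673-3p lower, with 41.2% called over all miRNAs (21.2% higher, 20.0% lower). At P16 against P0, 0 of the 8 were called by edgeR or by DESeq2, and 0 had an unadjusted p under 0.05, with 16.1% called over all miRNAs (8.07% in each direction). The list was drawn up with these time courses known, and nothing is read from the counts beyond where the members lie.

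The opposite arm of miR-493-5p, which is not among the 10, was the arm that the SOC libraries held. miR-493-3p was at 41.8, 15.7, 16.9 and 24.1 CPM at E16, 4.97, 4.07, 5.09 and 10.001 CPM at P0, and 2.82, 7.95 and 5.46 CPM at P16. All E16 libraries were above all later ones, and miR-493-3p fell by 2.03 on the log2 scale (SE 0.49, FDR 0.0304) to P0 and by 2.19 (SE 0.54, FDR 0.00717) to P16. With the set covariate the changes were -2.27 and -3.13, both called. It was lower at the later stage within each set as well, by 0.57 to 3.52 log2 units (-0.57 to -3.52). Of the miRNAs compared here, miR-673-3p and miR-493-3p were called lower in the SOC over the same stages in which the 3 hair cell list miRNAs fell from 13.3% to 0.146% of CPM and the oligodendrocyte list rose. The part of cell composition in the changes of any of these arms was not tested.

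The share of the 5p arm in the counts of a hairpin compares the arms within a library and needs no scaling between libraries. In the SOC the share of miR-770 was 4.41 ± 1.90% (SD, n = 4) in the E16 libraries, 4.42 ± 2.47% (n = 4) in those of P0 and 11.2 ± 2.67% (n = 3) in those of P16. The P16 libraries held 14.3% (95% Wilson interval 13.3 to 15.3), 9.34% (8.92 to 9.78) and 10.04% (9.62 to 10.5), all above the highest E16 value of 6.89% and the highest P0 value of 7.95%. This difference rests on the rise of miR-770-5p for which the arm was singled out, and is given without a test. Of the 265 hairpins with enough counts in the SOC, 25.7% had 5p shares that did not overlap between E16 and P16 and 12.8% between P0 and P16, beside 4.53% between E16 and P0. Within set B the 5p share of miR-770 was 6.89 and 4.89% at E16, 7.95% at P0 and 14.3% at P16. Within set C it was 4.33% at P0 and 9.34 and 10.04% at P16.

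For miR-673 the 5p share was 74.2 to 81.7% in the 3 libraries of set C and 13.9 to 38.5% in the 8 libraries of sets A and B. Within sets A and B it was 19.2 to 38.5% at E16, 13.9 to 18.3% at P0 and 20.1% in the P16 library, so that the E16 libraries lay above those of P0. With P0 replicate 4 of set C (81.7%) these stages overlapped. How many hairpins were without overlap within sets A and B was not counted. The difference of means between set C and sets A and B, 56.4 percentage points, was the 4th largest of 265 hairpins. Of these hairpins, 30.6% had a set C that did not overlap with sets A and B. The stage means of 27.0 ± 8.30% (E16, n = 4), 32.5 ± 32.9% (P0, n = 4) and 57.9 ± 32.9% (P16, n = 3) therefore mix stages with sets. None of the 3 stage comparisons of miR-673 passed the exact permutation test (unadjusted p 0.171 and adjusted p 0.867 for P16 against E16). Without set C the difference of P16 from E16 turned from 30.9 to -6.93 percentage points.

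The counts of miR-337 in the SOC lay almost wholly on its 5p arm, at 95.5 ± 1.53% (n = 4), 96.5 ± 1.57% (n = 4) and 97.9 ± 0.355% (n = 3) for E16, P0 and P16. The arms of miR-540 were nearly balanced, with 5p shares of 38.7 to 67.9% over the 11 libraries. Of the 14 comparisons of arm shares tested in both organs, 0 had an adjusted or an unadjusted p under 0.05 by the exact two-sided permutation test. The smallest p of this test is 0.0286 with 4 against 3 or 4 against 4 libraries. With 2 against 4 it is 0.0667, so that the cochlear comparisons with E16 could not pass. After adjustment over the 14, 1 comparison alone at 0.0286 could not pass either, so that unchanged shares cannot be read from this. The SOC shares of miR-337 did not overlap between E16 and P16 (unadjusted p 0.0571, adjusted 0.8), as in 25.7% of 265 hairpins.

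**Figure D4:**
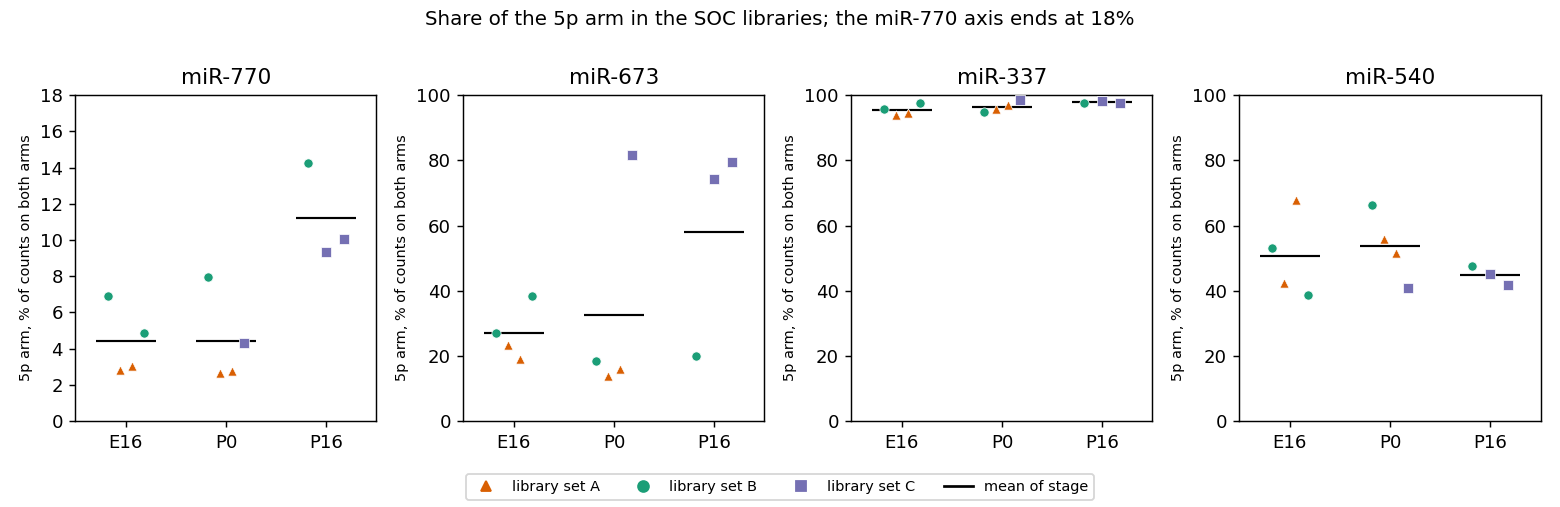
Share of the 5p arm among the counts of both arms, in percent, for 4 hairpins in each SOC library, with a bar at the stage mean and the library set given by marker (the axis of miR-770 stops below that of the other 3). The P16 libraries of miR-770 lie at 9.34 to 14.3%, above all earlier ones, and for miR-673 the 3 set C libraries lie at 74.2 to 81.7%.

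In the plot of arm shares the miR-770 panel separates P16 from the earlier stages, whereas the miR-673 panel separates set C from the rest.

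In the cochlea, miR-770-3p was higher after birth and miR-673-5p was lower at P16. miR-337-3p and miR-540-5p were lower after birth than at E16, at 0 to 6 and 0 to 3 counts per library. With floors of 16.6 CPM at P0 and 20.2 CPM at P16, their absence cannot be read from these counts. miR-770-3p had 79.0 and 52.1 CPM at E16 (29 and 30 counts), 358, 385, 231 and 382.1 CPM at P0, and 163, 405, 378 and 453.4 CPM at P16. Every P0 and P16 library was above both E16 libraries. The log2 fold change was 2.38 (SE 0.54, FDR 0.000112) at P0 and 2.41 (SE 0.54, FDR 6.66e-05) at P16, both called, and 0.03 (SE 0.39) between P0 and P16. Both calls held in all 10 omissions of a single library, at log2 fold changes of 2.11 to 2.61 and 2.15 to 2.66. The 5p arm had 0 or 1 count in every cochlear library, so that its course was not detectable at this depth.

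miR-673-5p was at 305 and 278 CPM at E16, 267, 356, 218 and 360 CPM at P0, and 35.7, 109, 119 and 74.3 CPM at P16. All 4 P16 libraries were lower than every earlier library. It fell by 1.80 on the log2 scale from E16 to P16 (SE 0.50, FDR 0.00167) and by 1.85 from P0 to P16 (SE 0.44, FDR 0.000428), both called, while the difference of P0 from E16 was 0.05 (SE 0.48, FDR 0.971). Both calls held in all omissions of a library, but the fit of all 21 libraries together gave FDR values of 0.102 and 0.107. The arm preference was opposite to that of the SOC sets A and B: the 5p arm took 90.0 to 100% of 7 to 163 counts in the cochlea, and miR-673-3p had 0 to 3 counts in each library. With the SOC counts thinned to the median cochlear total, miR-673-3p still had at least 98 counts in each E16 library of the SOC. Organ and kit cannot be told apart in this comparison.

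miR-337-3p had 103 and 98.99 CPM at E16 (38 and 57 counts), then 1, 0, 6 and 0 counts at P0 and 2, 3, 0 and 1 counts at P16. Summed over libraries, the level at E16 was 10.5 times that at P0 (95% interval of the counts 4.90 to 26.8) and 10.2 times that at P16 (4.53 to 28.6). Both falls were called, with FDR values of 0.000712 and 0.000676. miR-337-5p had 84.4 and 83.4 CPM at E16, 22.2 to 87.7 CPM at P0 and 7.78 to 113 CPM at P16. These overlapped, and its log2 fold changes of -0.91 (SE 0.67, FDR 0.308) and -0.68 (SE 0.67, FDR 0.431) were not called. At E16 the arms of miR-337 were thus nearly equal in the cochlea, with a 5p share of 45.3 ± 0.556% (n = 2), against 94.0 to 97.4% in the SOC at that stage.

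miR-540-5p had 57.2 and 46.9 CPM at E16 (21 and 27 counts), 3, 0, 0 and 0 counts at P0, and 1, 1, 0 and 1 counts at P16. The summed level at E16 was 12.4 times that at P0 (95% interval of the counts 3.98 to 62.0) and 10.3 times that at P16 (3.33 to 51.9), with FDR values of 0.00778 and 0.0118, both called. Both calls were lost on leaving out either E16 library, where the FDR was 0.0690 and 0.0799 for P0 and 0.0837 and 0.0975 for P16, the lone E16 library then being taken to vary like the other stages. With DESeq2 the P0 call held (FDR 0.0370) and the P16 call was lost (FDR 0.0543). miR-540-3p had 4 and 0 counts at E16 and 0 or 1 afterwards. miR-493-5p and miR-665-3p had 0 to 3 counts in every library, at the floor. The 5p arm of miR-665, which is not among the 10, had 11 and 9 counts at E16 and 0 to 2 in later libraries.

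Of the 10 miRNAs, 1 was called higher (miR-770-3p) and 2 lower (miR-337-3p and miR-540-5p) at P0 against E16 in the cochlea, where 24.4% of all 896 miRNAs tested were called (7.81% higher, 16.6% lower). At P16 against E16, 1 was called higher (miR-770-3p) and 3 lower (miR-337-3p, miR-540-5p and miR-673-5p), with 29.6% called over all miRNAs (10.9% higher, 18.6% lower). At P16 against P0, 1 was called lower (miR-673-5p), with 10.5% called over all miRNAs (3.91% higher, 6.58% lower). The marker lists moved over the same stages. The summed level of the 7 epithelial miRNAs was 14737 to 22575 CPM at E16, 5657 to 7803 CPM at P0 and 2498 to 7050 CPM at P16. The 4 neuronal miRNAs had medians of 3065, 809 and 1052 CPM in that order, and the 3 mesenchymal ones 48957, 68475 and 19199 CPM. The muscle list had medians of 511, 337.2 and 3129 CPM, the oligodendrocyte list 54.4, 108 and 1129 CPM, and the blood list 16.7, 0 and 0 CPM. The part of these shifts in the changes of the Meg3-side miRNAs was not tested. The plot of cochlear counts shows how few counts these falls rest on.

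**Figure D5:**
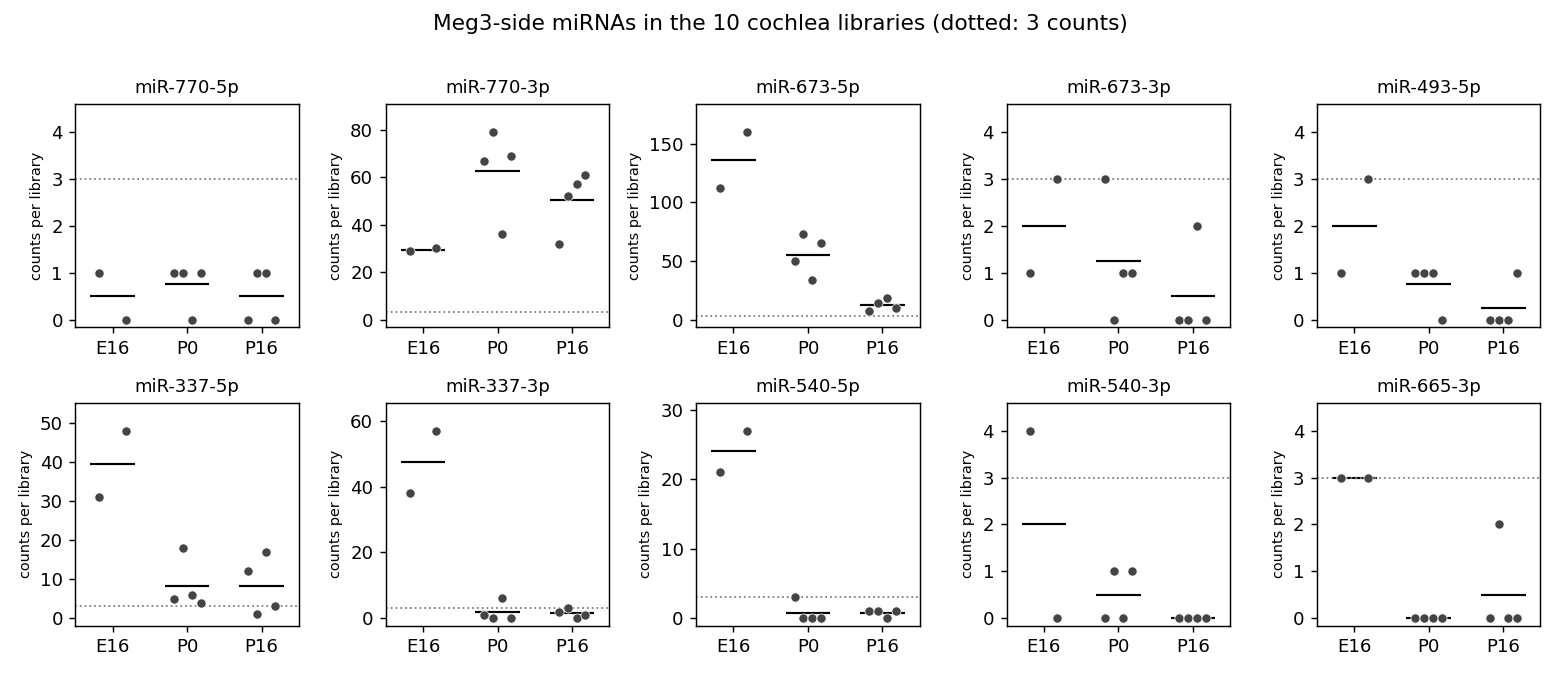
Raw counts of the 10 Meg3-side miRNAs in each cochlear library (2 E16, 4 P0 and 4 P16 libraries), with a bar at the stage mean and a dotted line at 3 counts. miR-770-3p, miR-673-5p, miR-337-5p, miR-337-3p and miR-540-5p exceed 4 counts in some library, and the other 5 stay at 0 to 4 counts.

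Whether a change over time differed between the organs was tested as the organ-by-stage interaction of edgeR's quasi-likelihood fit over the 545 miRNAs tested in both. It passed the FDR threshold for 1 of the 9 Meg3-side miRNAs at P0 and 1 of the 8 other than miR-770-5p at P16, both times miR-540-5p, where 11.9% and 16.9% of all miRNAs passed. The change of miR-540-5p in the SOC exceeded that in the cochlea by 4.31 log2 units at P0 (SE 1.09, FDR 0.00980) and by 4.09 at P16 (SE 1.12, FDR 0.0145). It was 4.36 and 4.06 with DESeq2 and 4.13 and 3.45 with the set covariate, and passed in each, but rests on 0 to 3 counts per cochlear library after birth. For miR-337-3p the difference was 2.95 (SE 1.07, FDR 0.0691) at P0 and 2.55 (SE 1.11, FDR 0.117) at P16. It passed at both stages with the set covariate (FDR 0.00700 and 0.0174), with DESeq2 (0.00508 and 0.0316) and with scaling by library totals (0.0107 and 0.0218). With RLE scaling factors it did not pass (0.0673 and 0.127). This difference rests on 0 to 6 counts per cochlear library after birth. For miR-770-3p, called higher at P0 and P16 in both organs, the difference in change was -0.18 (SE 0.81, FDR 0.880) at P0 and 0.83 (SE 0.84, FDR 0.565) at P16. With the set covariate it was -0.92 (SE 0.55, FDR 0.187) and -0.77 (SE 0.61, FDR 0.381), so that the sign at P16 turned. The standard errors leave room for a difference of more than 1 log2 unit either way at P0. For miR-673-5p it was -0.50 (SE 0.85, FDR 0.700) and 1.18 (SE 0.88, FDR 0.411). With the set covariate it was -1.36 (SE 0.48, FDR 0.0327) at P0, which passed, and -0.40 (SE 0.55, FDR 0.638) at P16, of the opposite sign.

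Taken as a sum, the 10 Meg3-side miRNAs were a minor part of the imprinted region's output. In the SOC they made up a median of 0.129, 0.159 and 0.257% of CPM at the 3 stages in order, against 21.6, 18.5 and 29.2% for the miRNAs of the Rtl1-antisense hairpins and 7.51, 9.24 and 6.34% for the miR-379 to miR-410 cluster. In the cochlea the Meg3-side miRNAs made up 0.0616, 0.0741 and 0.0574%, the Rtl1-antisense miRNAs 0.219, 0.162 and 0.218%, and the miR-379 to miR-410 cluster 1.80, 1.09 and 1.27%. Calls in these context lists are given beside the shares over all miRNAs, 41.2% in the SOC and 29.6% in the cochlea. In the SOC at P16 against E16, 3 Rtl1-antisense miRNAs were called higher and 1 lower of 12 tested, and 11 miRNAs of the miR-379 to miR-410 cluster were called higher and 17 lower of 61. In the cochlea at P16 against E16, 1 Rtl1-antisense miRNA was called higher and 3 lower of 11, and 3 miRNAs of the cluster were called higher and 23 lower of 57. The median log2 fold change of the miR-379 to miR-410 cluster in the cochlea was -1.47 at P16 against E16, beside -0.94 over the 10 Meg3-side miRNAs and -0.09 over all miRNAs tested. In the SOC the same medians were -0.49, 0.85 and 0.08, where 0.85 is over the 9 members tested there, miR-770-5p included. The middle member was miR-540-5p, which was not called and stood at 0.32 with the set covariate. Over all miRNAs the covariate moved the median from 0.08 to -0.17. The medians of the lists were not taken with the covariate. Several of the Meg3-side values entering the cochlear median come from arms at 0 to 4 counts.

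Across the 11 SOC libraries, which were scaled together and differ by stage and by set, the miRNAs whose log2 levels followed miR-770-5p most closely were miR-138-5p (Pearson r = 0.993), miR-187-3p (0.992), miR-666-3p (0.980), miR-3061-5p (0.979) and miR-3552 (0.974), among 423 miRNAs compared. The partner arm miR-770-3p had r = 0.911 and ranked 36th, and miR-673-3p had r = -0.913. miR-673-5p was followed most closely by miR-674-3p (0.9495), miR-574-5p (0.932), miR-532-3p (0.889), miR-574-3p (0.882) and miR-181a-2-3p (0.879), while its own partner miR-673-3p had r = -0.30. For miR-337-5p, which varied little, the closest were miR-433-3p (0.750), miR-667-3p (0.748), miR-3093-3p (0.740), miR-877-5p (0.730) and miR-666-5p (0.727). No test was made on these values.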

How the data were processed

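Small RNA libraries of cochlea (10) and SOC (11) were taken from 1 deposited table of raw miRNA counts per library, with 1647 miRNAs as rows, 21 library columns and miRBase-style names. The authors aligned reads with Bowtie2 2.2.5 to mm10 and also name DESeq2, per the submitters' processing notes, while the counting step and whether it used strand are not given in the sources used here. The study's methods instead describe Bowtie and a reference built from MirGeneDB, a different miRNA catalogue from the one the names of the table follow, and which of these made the table was not resolved. Counts of miRNAs with shared sequence could therefore be split in a way that was not checked. The groups came from the labels. The members and the context and marker lists were chosen with earlier results of these data known. All 10 members are described in every comparison, together with the listed opposite arms miR-493-3p and miR-665-5p, and the 5 miRNAs most like 3 of them were taken by Pearson r over SOC miRNAs that reached a stage mean of 10 CPM.

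Within each organ, miRNAs with over 1 CPM in 2 or more libraries of 1 stage were fitted with edgeR 4.0.16 (R 4.3.3; glmQLFit, glmQLFTest, TMM), a procedure first tested on simulated data. P-values were adjusted by Benjamini-Hochberg over all miRNAs of the organ. They measure the spread between libraries, which the study calls biological repeats (for the SOC, pools of animals). The organ-by-stage interaction was fitted on all 21 libraries. Shares of the 5p arm were compared where both arms together had at least 10 counts in every library, with exact two-sided permutation tests in scipy 1.17.1. The changes of miR-770-5p and of its arm share to P16 in the SOC were not tested, because the arm was chosen for them. Total counts were 124400 to 447419 per cochlear and 8309669 to 18053698 per SOC library, and precision at low counts is limited accordingly. No 2 libraries of a group agreed within sampling noise (lowest chi-square per degree of freedom 5.95 over 28 pairs). Same-numbered SOC libraries of E16 and P0 deviated together in 4 of 4 pairs (r 0.251 to 0.490). Of the 12 differently numbered pairs, 2 also did (r 0.255 and 0.409), both between set A libraries. Numbers and sets largely coincide in these stages. A pairing by number was therefore not established, and the labels state none. In the other stage pairs same-numbered libraries did not all deviate together. The SOC library sets were defined after earlier results were known, from the shares of miR-99b-5p and miR-191-5p. Alternatives were DESeq2 1.42.0, RLE factors, library totals, other filters and call rules, 1 fit of all libraries, the replicate block, the library set and leaving out each library. Fits without set A or set C, values within sets A and C, and arm shares without set C were chosen after seeing the data.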

Additional observations from a re-analysis of the deposited data

Results flagged for a closer look

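A gap rule for groups of 4 libraries (the distance of the highest or lowest library to its nearest neighbour, relative to the range of the group) picked out 9 of 48 groups tested. Chance picks about 1 in 20 groups of continuous values, a rate that does not hold for low counts, where 1 library apart from tied ones is picked by construction. In the SOC it picked P0 replicate 4, a set C library, for miR-673-5p, with 442 CPM against 71.7 to 88.8 CPM in the other 3, and for the 5p share of miR-673, with 81.7% against 13.9 to 18.3%. The other 7 are cochlear values that rest on a few counts. At P0, replicate 3 had 38.5 CPM of miR-337-3p (6 counts) against 0 to 5.35 CPM, replicate 1 had 16.05 CPM of miR-540-5p (3 counts) against 0, and replicate 3 had 0 CPM of miR-770-5p, and with it a 5p share of miR-770 of 0%, where the others had 1 count each. At P16, replicate 3 had 13.3 CPM of miR-673-3p (2 counts), replicate 4 had 7.43 CPM of miR-493-5p (1 count) and replicate 2 had 15.6 CPM of miR-665-3p (2 counts), where the other libraries had 0.

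The change of miR-540-5p differed between the organs by the interaction term, with the change in the SOC exceeding that in the cochlea by 4.31 log2 units at P0 and 4.09 at P16 against E16. The difference passed the threshold in all 21 omissions of a single library at both stages, with values of 3.88 to 10.1 and 3.65 to 4.54. Organ, kit and depth cannot be told apart in it.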

How the results depend on the processing

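Of 500 fold changes of single members under alternatives that leave no single library out, 450 kept their direction and their side of the threshold. Changes of the call rule alone reuse the main fit and cannot turn a direction. Arms near the floor can hardly be called in any setting, so that the 450 does not measure how firm the calls are. Low cochlear depth limits every arm under about 3 counts, and the SOC values rest on sets that are unevenly spread over the stages. The cause of the changes listed here was not tested. Scaling by library totals moved the median log2 fold change of all cochlear miRNAs from 0 to -0.38 at P0 and from -0.09 to -0.58 at P16 against E16, and under it the P0 value of cochlear miR-673-5p turned from 0.05 to -0.41.

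Without miR-770-5p in the comparisons with P16, where it was not tested, the number of Meg3-side miRNAs called in the SOC was 1 at P0 against E16, 2 at P16 against E16 and 0 at P16 against P0. Counted the same way it was 0, 0 and 0 without set A and 2, 1 and 0 without set C. Leaving out single libraries gave 0 to 2, 1 to 3 and 0 to 2 (2 without P0 replicate 4). In the cochlea the numbers were 3, 4 and 1, and 1, 1 and 0 with at least 10 counts in every library, a filter that leaves few members to test. In 1 fit of all 21 libraries the number called at P16 against P0 was 0. The number of members whose change differed between organs was 1 at P0 and 1 at P16. It was 2 and 2 with DESeq2, 2 and 2 with library totals, 3 and 2 under the set covariate and 1 to 2 and 1 to 2 on leaving out single libraries. With the covariate the P16 difference between organs turned to -0.77 for miR-770-3p and to -0.40 for miR-673-5p.

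The replicate block, the number of the library in its title, changed no call at P0 against E16 in the SOC. In that comparison same-numbered libraries deviated together, and so did differently numbered ones of set A. With the block miR-770-3p was 2.05 (FDR 0.0159) and miR-770-5p 2.01 (FDR 0.0359, overlapping). Elsewhere same-numbered libraries did not all deviate together. There the block gave no call for miR-540-5p in the cochlea at P0 (FDR 0.106) and P16 (FDR 0.193) against E16, and called miR-540-3p in the SOC at P16 against E16 (FDR 0.0318). Under the replicate block miR-665-3p in the SOC at P0 against E16 turned to -0.18, miR-673-5p in the SOC at P16 against P0 to 0.69, miR-673-5p in the cochlea at P0 against E16 to -0.073 and miR-337-3p in the cochlea at P16 against P0 to 0.33, and 155 cochlear miRNAs were called at P0 against E16 in place of 219. Counts over all miRNAs that moved by over 1.5 times were, at P0 against E16, 99 in 1 fit of all libraries and 93 with at least 10 counts in every library (cochlea), and 84 with DESeq2, 96 with the set covariate, 91 without set C and 0 without set A in place of 46 (SOC). At P16 against E16 they were 161 and 104 in place of 265 (cochlea, in the same order), and 189 with at least 10 counts and 103 without set A in place of 286 (SOC). At P16 against P0 they were 55 and 54 in place of 94 (cochlea), and 72 in 1 fit of all libraries and 12 without set A in place of 112 (SOC). Omissions of single libraries are not in this list. In the SOC they gave 22 to 57 at P0 against E16 and 206 to 363 at P16 against E16. At P16 against P0 they gave 57 (without P16 replicate 3) to 247 (without P0 replicate 4), so that the share over all miRNAs there hangs on single libraries.

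The remaining turns of sign were among log2 fold changes that were not called. For miR-337-3p in the SOC they were 0.026 at P0 against E16 without set C, 0.10 at P16 against E16 with the set covariate, and at P16 against P0 0.26 with the covariate, 0.12 without set A and 0.75 within set C. In the cochlea at P16 against P0, miR-337-3p gave 0.047 with DESeq2, 0.083 with RLE factors, 0.0078 without a filter and 0.083 in 1 fit of all libraries, and miR-770-3p gave -0.0073 with library totals. For miR-337-5p in the SOC at P0 against E16 they were -0.38 without set A, -0.013 in 1 fit of all libraries and -0.73 within set B. For miR-540-3p they were -0.11 at P0 against E16 within set B, and at P16 against P0 -0.050 with the covariate and -0.19 within set C. For miR-540-5p at P16 against P0 they were -0.27 with the covariate, -0.27 without set A, -0.28 without set C, -0.78 within set B and -0.038 within set C. For miR-665-3p at P0 against E16 they were -0.13 without a filter, -0.15 with at least 10 counts in every library, -0.37 with the covariate, -0.76 without set C, -0.21 within set A and -0.97 within set B, with -0.037 at P16 against E16 (covariate) and -0.16 at P16 against P0 (within set C). For miR-673-5p in the SOC at P16 against P0 they were 0.076 with at least 10 counts in every library and 0.064 within set B. The 5p share of miR-673 differed by -11.0 percentage points at P0 and -6.93 at P16 from E16 without set C, and by -14.4 and -12.7 within set B. Within set B that of miR-337 differed by -1.70 at P0 and that of miR-540 by 1.58 at P16.

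Leaving out single libraries turned the sign of further small differences. In percentage points of the 5p share, the SOC ranges against E16 were -1.10 to 8.93 (miR-540, P0), -9.69 to 0.038 (miR-540, P16), -11.0 to 11.7 (miR-673, P0) and -1.16 to 0.84 (miR-770, P0), and the cochlear ranges of miR-770 were -2.30 to 1.04 (P0), -2.43 to 0.90 (P16) and -0.48 to 0.17 (P16 against P0). Of log2 fold changes, the SOC ranges were -0.47 to 0.066 (miR-337-3p), -0.013 to 0.24 (miR-337-5p) and -0.69 to 0.34 (miR-665-3p) at P0 against E16, and -0.11 to 0.39 (miR-540-5p) and -0.43 to 0.96 (miR-673-5p) at P16 against P0. The cochlear ranges were -1.77 to 2.46 (miR-540-3p) and -0.051 to 0.17 (miR-673-5p) at P0 against E16, and -0.64 to 2.20 (miR-337-3p), -0.44 to 0.84 (miR-337-5p) and -0.12 to 0.28 (miR-770-3p) at P16 against P0. Where 1 cochlear E16 library was left, it was taken to vary like the other stages.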

Other observations

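The Mir337 hairpin is overlapped on the minus strand by Mir3544 (chr12:109585813-109585873), which is not among the 10 miRNAs described and was looked at after the values were seen. In the SOC, mmu-miR-3544-3p was at 0.586, 0.617, 1.099 and 1.82 CPM at E16, 0.723, 0.555, 1.96 and 3.02 CPM at P0, and 2.92, 11.9 and 8.90 CPM at P16. The P16 libraries were above all E16 libraries, which held 8 to 21 counts of it. The log2 fold change was 2.94 (SE 0.70), and 1.66 (SE 0.62) with the set covariate. These are given without a test, because the arm was picked after its values were seen. miR-337-5p on the other strand changed by 0.43 (SE 0.35). The 2 highest values of miR-3544-3p belonged to set C libraries. In the cochlea miR-3544-3p had 0 counts in all 10 libraries.

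miR-673-3p had 6149 to 9251 counts in the SOC libraries of E16 and 0 to 3 in the cochlear libraries of all stages. miR-493-3p had 30 to 713 counts over all SOC libraries and 0 or 1 in the cochlear ones. With the SOC counts thinned to the median cochlear total of 196885, all 9 Meg3-side miRNAs that passed the filter in the SOC still passed it, and miR-673-3p had at least 98 counts in each E16 library. Organ and kit cannot be told apart.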
